A study of Homo sapiens with 6 samples.

Results

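The genes described here are 10 transcription factors that mark and build epithelial and mammary identity: the grainyhead-like factors GRHL1, GRHL2 and GRHL3, the basal factor TP63, the epithelial ETS factors ELF3 and EHF, the Krüppel-like factor KLF5, and the luminal factors GATA3, FOXA1 and ESR1. They were taken by symbol from a list, and all 10 were found among the 26484 genes of the count tables. All 10 also passed the filter on low counts, which left 11517 genes. RNA was sequenced from MCF10CA1a cells, an aggressive human breast cancer line of the MCF10A progression series, on hydrogel dishes of 500 Pa (soft) or 8000 Pa (stiff). Both groups were grown in DMEM/F12 with horse serum, HEPES, sodium bicarbonate, penicillin/streptomycin and fungizone on gels carrying growth factor-reduced Matrigel at 0.14 mg/ml, with new medium on day 4 and RNA taken on day 5. There were 3 biological replicates per stiffness, numbered 1 to 3, of this 1 cell line, and no genotype or drug differed between the groups. The labels do not say whether the replicates were separate cultures, so p-values refer to these libraries and not to a wider set of cultures. The RNA is listed as cytosolic in one label and as total RNA in another. The comparison is of transcript levels on stiff against soft gels.

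Grainyhead-like proteins bind DNA as dimers and switch on genes of cell junctions and barrier formation, and GRHL2 is known for holding breast epithelial cells in the epithelial state. TP63 keeps basal and myoepithelial identity, while GATA3, FOXA1 and ESR1 form the luminal hormone-responsive network, in which FOXA1 opens chromatin for the estrogen receptor. ELF3 and EHF are ETS factors restricted to epithelia, and KLF5 supports proliferation of epithelial progenitors. MCF10A cells are generally described as estrogen receptor-negative with basal features.

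The upstream sequences of the 2 genes with the largest stiffness difference, GRHL3 and TP63, are shown with that of the paralog GRHL1, so that a family member that passed a test and one that did not can be set side by side. They run 5′ to 3′ on the plus strand, come from RefSeq windows on GRCh38.p14, and are cut so that they hold no annotated exon base of the gene. GRHL3 has 2 start windows, at chr1:24319107-24319321 and chr1:24322790-24323039, GRHL1 has 1 at chr2:9951443-9951692 and TP63 has 1 at chr3:189631139-189631388. The second GRHL3 window lies inside the annotated gene, which begins at 24319322. The TP63 window lies before the first base of the annotated gene (189631416), and any TP63 start further inside the gene is not covered. Capitals mark matches to the motifs named after the sequences.
GRHL3 first start: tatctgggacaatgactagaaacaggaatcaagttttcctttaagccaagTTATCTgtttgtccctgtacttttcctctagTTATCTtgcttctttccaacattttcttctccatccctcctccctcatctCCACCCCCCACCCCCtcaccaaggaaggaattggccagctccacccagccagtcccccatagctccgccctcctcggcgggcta
GRHL3 second start: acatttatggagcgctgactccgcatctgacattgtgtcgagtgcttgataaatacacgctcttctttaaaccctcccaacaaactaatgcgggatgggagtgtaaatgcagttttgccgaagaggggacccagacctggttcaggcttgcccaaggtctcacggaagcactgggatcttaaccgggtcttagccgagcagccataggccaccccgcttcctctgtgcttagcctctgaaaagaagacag
GRHL1: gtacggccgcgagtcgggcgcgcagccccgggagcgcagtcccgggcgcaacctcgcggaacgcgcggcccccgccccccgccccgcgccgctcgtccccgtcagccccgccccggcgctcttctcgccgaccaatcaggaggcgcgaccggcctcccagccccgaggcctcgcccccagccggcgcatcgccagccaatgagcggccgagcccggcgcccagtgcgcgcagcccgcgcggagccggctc
TP63: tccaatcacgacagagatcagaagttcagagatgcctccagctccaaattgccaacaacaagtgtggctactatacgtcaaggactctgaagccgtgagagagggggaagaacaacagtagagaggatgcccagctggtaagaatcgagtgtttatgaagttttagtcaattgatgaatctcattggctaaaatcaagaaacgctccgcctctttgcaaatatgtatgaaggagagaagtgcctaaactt

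The GRHL1 stretch held 45 CG dinucleotides in 250 bases and 81.6% G or C. The first GRHL3 stretch held 3 in 215 bases and 51.2%, the second 10 in 250 bases and 52%, and TP63 held 6 in 250 bases and 44%. Over 35116 RefSeq windows of 250 bases before a start, the median was 11 CG dinucleotides and 58% G or C. Motifs were searched on both strands. The first GRHL3 start had 2 GATA matches (AGATAA, in 9.17% of all windows) and 2 overlapping KLF matches (GGGNGTGG, in 15.7%), and the other 3 stretches had none. The grainyhead motif AACCGGTT was in 0.117% of all windows and in 0 of the 22 windows of the 9 members with an entry. The ETS motif GGAAGT (19.5%), the FOXA motif TGTTTAC (2.98%) and the TEAD motif GGAATG (11.9%) matched windows of other members but none of these 4, and the palindromic estrogen response element (0.0399%) matched none of the 22. A match is a stretch of letters, not a measured binding site.

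Library totals ran from 8305601 to 18779742 counts. The epithelial markers were present in each library, with EPCAM at 138 to 345 CPM (counts per 1e6, with library sizes scaled by the TMM method) and CDH1 (E-cadherin) at 253 to 427 CPM. Library 8000 Pa replicate 1 stood apart: it lay at -62.3 on a first principal component that held 49.1% of the variance and followed transcript GC content across genes (Spearman rho 0.79 over 11023 genes, which are not independent). Its levels changed by -0.57 log2 units per 10 points of GC, against 0.33 and 0.35 in the replicate 3 libraries and -0.05 to -0.02 in the other 3. Deviations from the group means correlated between same-numbered libraries, at 0.409, 0.184 and 0.516 across genes for replicates 1 to 3. However, 500 Pa replicate 2 correlated at 0.199 with 8000 Pa replicate 1, and the labels give no shared day or batch. The pairing is thus uncertain, and fits were made without the replicate number (unpaired) and with it as a block (paired).

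Levels of the 10 genes spanned more than 3 orders of magnitude once divided by exon length. ELF3 was highest, at 144 ± 45.7 CPM per kb (mean ± SD over 6 libraries) and at the 94.8th percentile of tested genes, followed by EHF at 46.2 ± 18.6 and GRHL1 at 14.5 ± 5.87 CPM per kb. GRHL2 stood at 7.60 ± 2.34, KLF5 at 5.74 ± 1.54, GATA3 at 3.32 ± 0.66, GRHL3 at 2.88 ± 1.47 and FOXA1 at 2.40 ± 0.681 CPM per kb. TP63 had 0.864 ± 0.522 and ESR1 0.0890 ± 0.0389 CPM per kb, at the 18.4th and 0.172th percentiles. ELF3, EHF and GRHL1 held the first 3 places and TP63 and ESR1 the last 2 in each of the 6 libraries. The ranges of GRHL1 and GRHL2, of GRHL2 and KLF5, of GATA3 and GRHL3, of GRHL3 and FOXA1 and of FOXA1 and TP63 overlapped, so over all libraries those neighbours are not separated beyond their spread. Within libraries GRHL1 was above GRHL2, and FOXA1 above TP63, in 6 of 6, GRHL2 above KLF5 and GATA3 above GRHL3 in 5 of 6, and GRHL3 above FOXA1 in 3 of 6. GRHL3 took 8th place in the 3 soft libraries and 6th or 7th place in the 3 stiff ones. Reads of the isoforms of a gene, such as the long and short forms of TP63, were not counted apart.

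**Figure D1:**
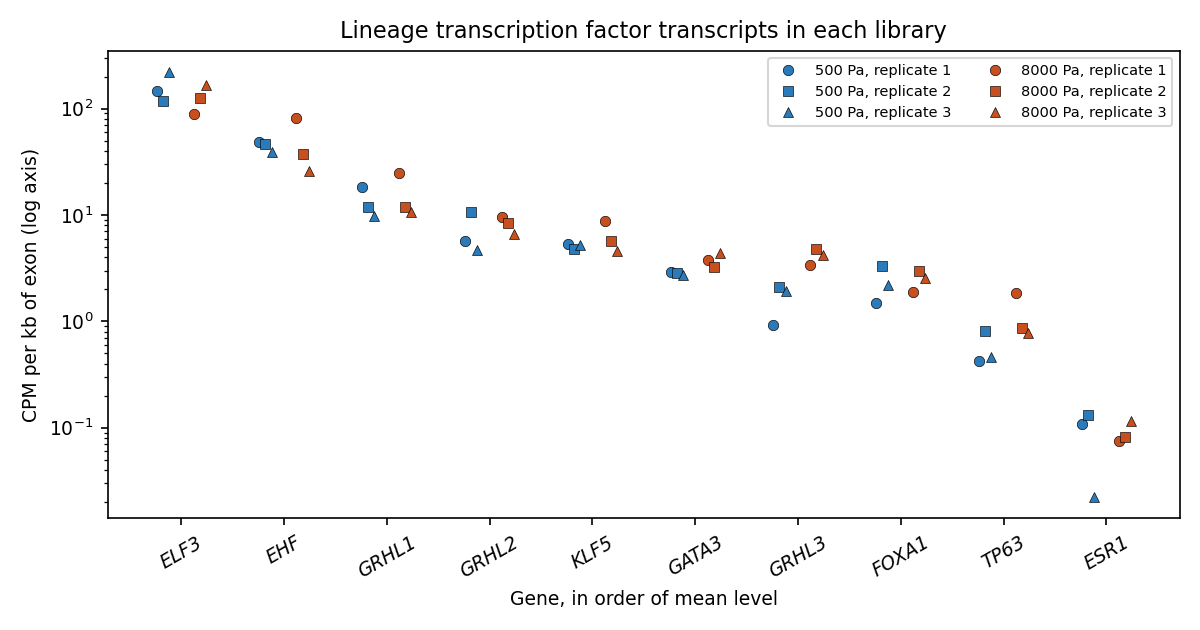
Level of each transcription factor in CPM per kb of exon (log axis) in the 6 libraries, soft gels in blue on the left and stiff gels in orange on the right of each gene, with the marker shape giving the replicate number. ELF3 is at the top in each library, from 89.8 to 220 CPM per kb, and ESR1 at the bottom, and the GRHL3 points of the 2 stiffnesses do not overlap.

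GRHL3 was higher on stiff gels, 2.48 times its soft-gel mean, and it was the 1 member of 10 to pass in the paired fit. GRHL3 (chromosome 1, 24319322 to 24364482, GRCh38) encodes a grainyhead factor known for its part in epidermal barrier formation and neural tube closure. Its level was 3.13, 7.27 and 6.57 CPM in the 500 Pa replicates 1 to 3 and 11.5, 16.3 and 14.4 CPM in the 8000 Pa replicates. Each stiff library lay above each soft library, and the raw counts behind these values were 56, 65 and 46 against 144, 154 and 144. The means were 5.66 ± 2.22 and 14.0 ± 2.40 CPM (SD, n = 3 each). In the paired edgeR fit the log2 fold change was 1.39 (SE 0.33, adjusted p = 0.0107), where 0.530% of all tested genes passed and 0.260% passed as higher. That fit used a spread trended over all genes, so its p-value does not measure the spread of GRHL3 itself. In bulk RNA, more cells that express a gene and more RNA per cell cannot be told apart. In the unpaired edgeR fit the GRHL3 value was 1.33 (SE 0.40) with an adjusted p of 0.99988, at rank 23 of 11517 by p-value, where 0% of genes passed.

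The GRHL3 difference had the same direction in the 3 pairs, with log2 ratios of 1.88, 1.16 and 1.13, and in each of the 21 fits that were run. The groups did not overlap and the fits draw on the same 6 libraries, so the shared direction is no separate support. Without 8000 Pa replicate 1, the library that stood apart, the unpaired log2 fold change was 1.46 (SE 0.40), and with an offset for transcript GC content the paired value was 1.40 (SE 0.27, edgeR adjusted p = 0.00673). The paired call was lost when any 1 pair was left out: the edgeR adjusted p was 0.115 without replicate 1, 0.0751 without replicate 2 and 0.181 without replicate 3. Library 500 Pa replicate 1 had the lowest GRHL3 level, and without it the unpaired log2 fold change was 1.03.

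The paralogs GRHL1 and GRHL2 did not pass in either fit. GRHL1 (chromosome 2, 9951693 to 10002277), a regulator of desmosomal and epidermal genes, had 65.9, 42.8 and 35.2 CPM on soft gels and 89.9, 43.1 and 38.7 CPM on stiff gels. The replicate 1 libraries were highest at both stiffnesses, and the groups overlapped. Its paired log2 fold change was 0.20 (SE 0.24, edgeR adjusted p = 0.853), and its unpaired value was 0.25 with all libraries and -0.24 without 8000 Pa replicate 1. GRHL2 (chromosome 8, 101492432 to 101669726) had 30.2, 56.8 and 24.6 CPM on soft gels and 50.3, 44.6 and 35.1 CPM on stiff gels. Its highest value was 500 Pa replicate 2 and its lowest 500 Pa replicate 3, and its paired log2 fold change was 0.30 (SE 0.25, edgeR adjusted p = 0.754). Per kb of exon, GRHL3 made up 3.68%, 8.60% and 11.8% of the summed GRHL transcripts in the soft libraries and 8.91%, 18.9% and 19.5% in the stiff ones, and the share was higher on the stiff gel in each same-numbered pair although the groups overlapped. GRHL1 was the largest of the 3 in each library, from 47.5% to 73.4%. The GRHL3 difference against that of its paralogs was not tested.

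**Figure D2:**
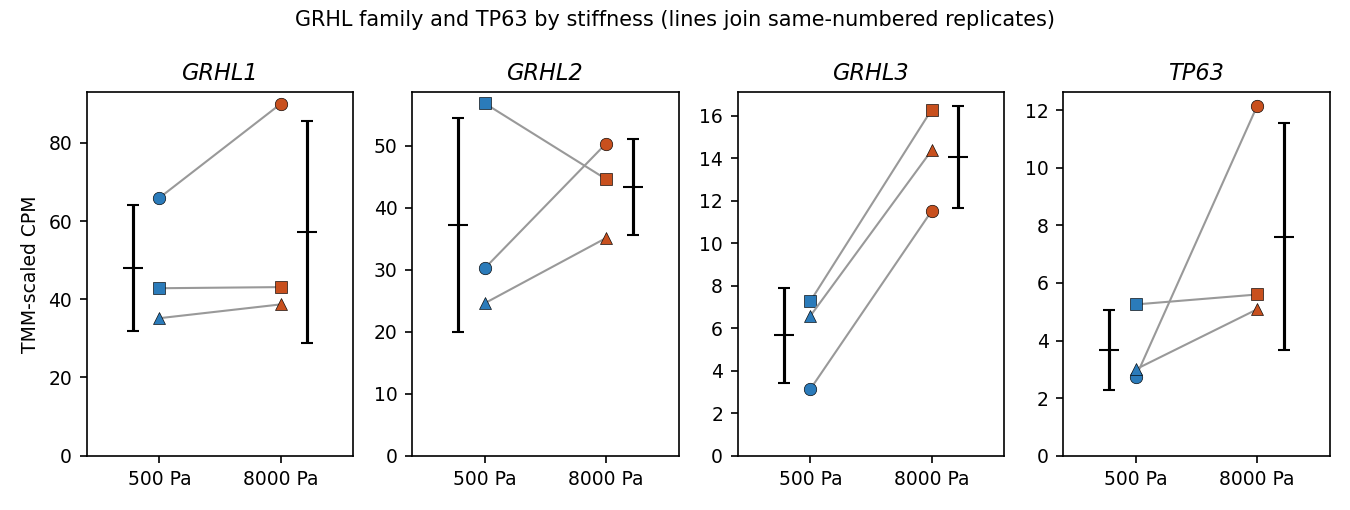
TMM-scaled CPM of GRHL1, GRHL2, GRHL3 and TP63 at 500 Pa (blue) and 8000 Pa (orange), each panel with its own axis from 0. Lines join libraries with the same replicate number (circle 1, square 2, triangle 3), and the black bars beside them are mean ± SD of 3 libraries. GRHL3 runs from 3.13 to 7.27 on soft and from 11.5 to 16.3 on stiff gels, while the TP63 mean on stiff gels is raised by replicate 1 at 12.1.

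TP63 (chromosome 3, 189631416 to 189897279), the master factor of basal cells, had 2.74, 5.25 and 3.00 CPM on soft gels and 12.1, 5.60 and 5.08 CPM on stiff gels. The 8000 Pa replicate 1 library was more than 2 times any other, and the groups overlapped by a small margin, since 5.08 lay below 5.25. The counts were low, at 21 to 152 per library. The paired log2 fold change was 1.03 (SE 0.40), which did not pass (edgeR adjusted p = 0.29, unadjusted p = 0.0102). Without 8000 Pa replicate 1 the unpaired value was 0.55 (SE 0.45) in place of 1.07 (SE 0.47), and without the replicate 1 pair the paired value was 0.42. TP63 transcripts have 42.5% GC, among the lowest of the members, and with the GC offset the paired value was 0.91 (SE 0.35).

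ELF3 (chromosome 1, 202007945 to 202017188), an inflammation-responsive epithelial ETS factor, had 896, 722 and 1361 CPM on soft gels and 554, 772 and 1035 CPM on stiff gels. The highest value was 500 Pa replicate 3 and the lowest 8000 Pa replicate 1, with the groups overlapping. Its log2 fold change was -0.33 (SE 0.24) in the paired fit (edgeR adjusted p = 0.700) and 0.0057 unpaired without 500 Pa replicate 3. The exons of ELF3 share 664 bases with the antisense gene ELF3-AS1 and 664 with a same-strand transcript, AL691482.3, and without known strandedness those reads cannot be told apart. Shorter shared stretches touch FOXA1 (16 bases, TTC6), GRHL2 (50, AP001207.3) and ESR1 (135, AL078582.1), while GRHL3, TP63 and GATA3 share 0 exon bases.

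EHF (chromosome 11, 34621093 to 34661057), the close relative of ELF3, had 190.1, 182 and 153 CPM on soft gels and 319, 149 and 103 CPM on stiff gels. The stiff libraries held both the highest and the lowest value, so that the SD was 114 CPM there against 19.6 CPM on soft gels. The log2 fold change was 0.12 (SE 0.36) unpaired and -0.03 (SE 0.23) paired, neither passing. Per kb of exon, ELF3 exceeded EHF by 3.02, 2.54 and 5.70 times in the soft libraries and by 1.11, 3.31 and 6.43 times in the stiff ones. This ratio was lowest in 8000 Pa replicate 1 and highest in both replicate 3 libraries, the same 3 libraries that stood apart by GC content. ELF3 transcripts have 56.0% GC and EHF transcripts 42.3%, the highest and the lowest of the 10, and the part of GC in the ratio was not tested.

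KLF5 (chromosome 13, 73054976 to 73077542) had 19.8, 18.1 and 19.7 CPM on soft gels and 33.0, 21.1 and 17.3 CPM on stiff gels. The 5 libraries other than 8000 Pa replicate 1 lay within 17.3 to 21.1 CPM. Its paired log2 fold change was 0.27 (SE 0.27), and the unpaired value was 0.31 with that library and 2.9e-04 without it.

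Of the luminal factors, GATA3 had no overlap between groups, FOXA1 overlapped, and ESR1 was the lowest of the 10 members. GATA3 (chromosome 10, 8045378 to 8075203), which directs luminal differentiation, had 9.16, 8.83 and 8.43 CPM on soft gels and 11.8, 10.1 and 13.8 CPM on stiff gels. The groups were apart, but the difference did not pass, with a paired log2 fold change of 0.42 (SE 0.32, edgeR adjusted p = 0.718) from 59 to 164 counts per library. GRHL3 and GATA3 were the 2 members of 10 with no overlap, and both were higher, where 4.02% of all tested genes had no overlap as higher, 2.85% as lower and 6.87% in either direction.

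FOXA1 (chromosome 14, 37589984 to 37596059), the forkhead factor that opens chromatin for steroid receptors, had 4.25, 9.50 and 6.29 CPM on soft gels and 5.43, 8.45 and 7.38 CPM on stiff gels. The replicate 2 libraries were highest at both stiffnesses and the replicate 1 libraries lowest, and the log2 fold change was 0.14 (SE 0.36) in the paired fit. ESR1 (chromosome 6, 151656691 to 152129619), the estrogen receptor alpha gene, had 25, 15 and 2 counts on soft gels and 12, 10 and 15 on stiff gels. These are 1.40, 1.68 and 0.286 CPM against 0.959, 1.06 and 1.50 CPM. A count of 0 allows up to 3 counts, or 0.168 to 0.429 CPM by library, and the 2 counts of 500 Pa replicate 3 lay under that limit of 0.429 CPM. The ESR1 log2 fold change was 0.09 (SE 0.63) in the paired fit, with pair ratios of -0.54, -0.67 and 2.39, so no direction was established.

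**Figure D3:**
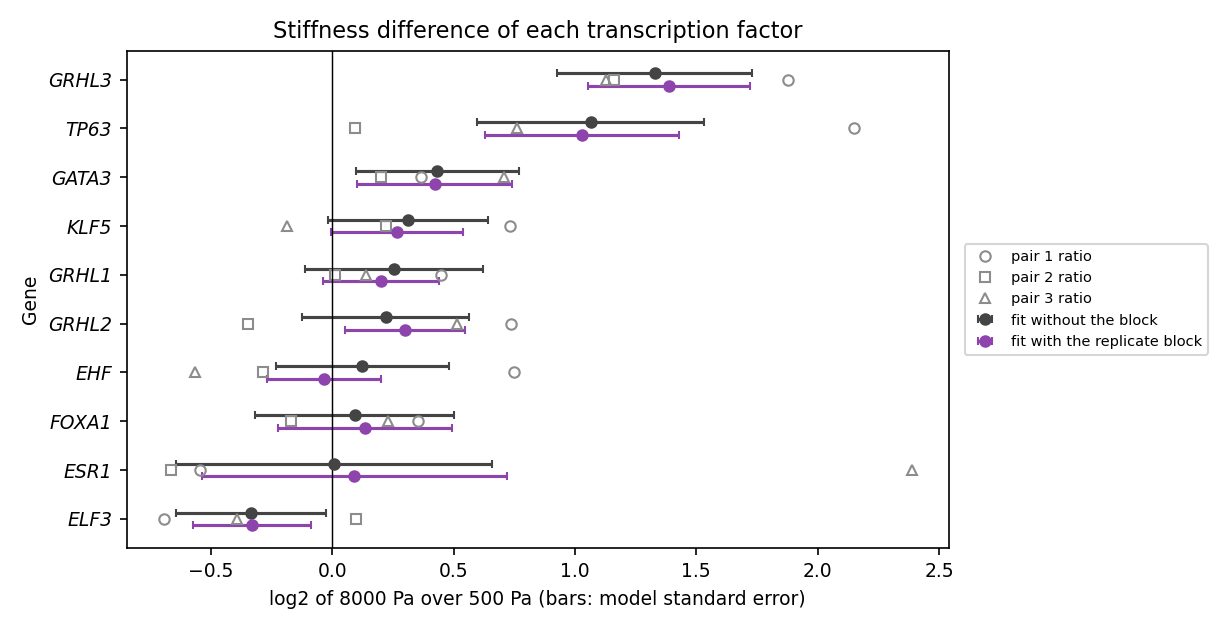
log2 ratio of 8000 Pa over 500 Pa for each factor. Filled points with bars are the fitted value and its standard error without (grey) and with (purple) the replicate block, and open symbols are the ratios in the 3 same-numbered pairs. GRHL3 is at 1.33 and 1.39 with its 3 pairs above 1, while ESR1 has a pair at 2.39 beside pairs at -0.54 and -0.67.

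Over the 10 members together, 9 had an unpaired log2 fold change above 0 and 8 a paired one, with a median of 0.24 in both fits. Over all tested genes 51.2% were above 0 unpaired and 49.4% paired, with medians of 0.01 and -0.01. In the unpaired edgeR fit 0 of the 10 passed, with GRHL3 and TP63 at an unadjusted p under 0.05 (2 of 10, against 2.45% of all genes), and DESeq2 and limma-voom without pairing also called 0. In the paired fit the same 2 had an unadjusted p under 0.05, against 10.6% of all genes. GRHL1, GRHL3, TP63 and GATA3 were higher in all 3 pairs, 4 of 10 where 14.6% of tested genes were, and 0 members were lower in all 3, where 15.2% were. The members' median in the pairs was 0.59, 0.05 and 0.37, and thus highest in the pair that holds 8000 Pa replicate 1.

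Deviations of the 10 genes from their own means differed by library. In 8000 Pa replicate 1, EHF, TP63 and GRHL1, the 3 members of lowest transcript GC, were 0.89, 1.29 and 0.86 log2 units above their own means, and ELF3, of highest GC, was 0.62 below. In 500 Pa replicate 3 the signs were the reverse, with EHF, TP63 and GRHL1 at -0.17, -0.73 and -0.50 and ELF3 at 0.67. In 8000 Pa replicate 3, of the steepest positive GC slope, EHF and GRHL1 were at -0.74 and -0.36 and ELF3 at 0.28, but TP63 was at 0.035. GRHL3, at 52.1% GC, lies between these genes in GC content, and it had 0.42, 0.92 and 0.74 in the stiff and -1.46, -0.24 and -0.39 in the soft libraries. The cause of these deviations was not tested.

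**Figure D4:**
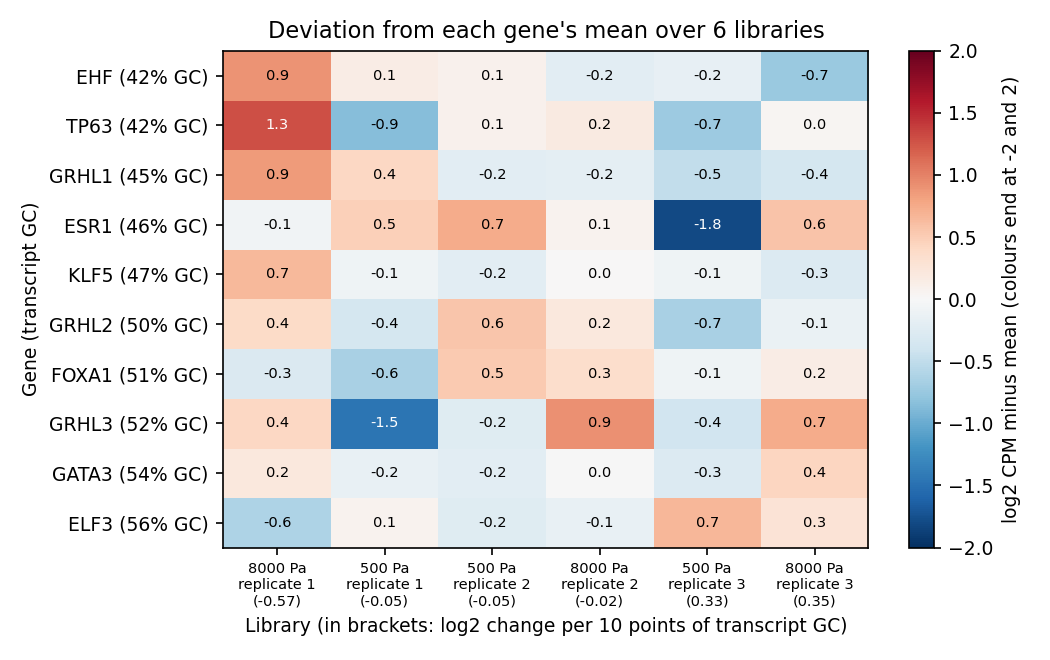
Deviation of each factor's log2 CPM from its mean over the 6 libraries, with genes ordered by transcript GC content (lowest at the top) and libraries by their GC slope (in brackets, log2 units per 10 points of GC). EHF, TP63 and GRHL1 are high and ELF3 low at the left, in 8000 Pa replicate 1, and GRHL3 is above 0 in the 3 stiff libraries.

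Genes known as targets or partners of these factors were read from lists chosen with earlier results of these data known. Of the 19 tested genes of the epithelial barrier list, tied to grainyhead and ELF3/EHF activity, 0 passed in either fit, with 8 above and 11 below 0 unpaired and a median of -0.06. CDH1, a direct GRHL2 target that encodes E-cadherin, had 253, 377 and 269 CPM on soft gels and 405, 427 and 388 CPM on stiff gels. It was the 1 of 19 tested genes of this list without overlap as higher, where 4.02% of all tested genes were. PKP3 (a desmosomal plakophilin, 8.01 ± 1.15 against 5.76 ± 1.94 CPM) was the 1 of 19 as lower, where 2.85% of all tested genes were. The CDH1 paired log2 fold change of 0.46 (SE 0.23) did not pass (edgeR adjusted p = 0.461). The tight junction gene CLDN4 had 1363 ± 669 CPM on soft and 1158 ± 477 CPM on stiff gels, CLDN7 had 705 ± 316 and 502 ± 167 CPM, and the protease inhibitor SPINT2 had 2636 ± 261 and 2524 ± 704 CPM (SD, n = 3 each).

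Of the 19 tested genes of the TP63 basal list, 0 passed, with 9 above and 10 below 0 unpaired and a median of -0.32. KRT15 had 10566 ± 1083 CPM on soft and 8251 ± 2096 CPM on stiff gels, KRT17 had 2249 ± 1001 and 1210 ± 386 CPM, and KRT6B had 1320 ± 255 and 902 ± 111 CPM. These 3 keratins had lower means on stiff gels, where TP63 itself had the higher mean. KRT15 and KRT6B were the 2 of 19 tested genes of this list without overlap, both lower. Over all tested genes, 2.85% had no overlap as lower and 6.87% in either direction. The basal list's medians in the pairs were -0.78, -0.04 and 0.05, lowest in the pair with 8000 Pa replicate 1, and without 500 Pa replicate 3 its unpaired median was 0.01.

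Of the luminal list, 13 of 20 genes were tested and 0 passed, with 4 above and 9 below 0 unpaired and a median of -0.09, which was 0.28 without 500 Pa replicate 3. The luminal keratins KRT8 and KRT18 had 11249 ± 3609 and 5348 ± 1734 CPM on soft and 9061 ± 3224 and 4240 ± 1428 CPM on stiff gels, and KRT7 had 6399 ± 2090 and 4938 ± 2387 CPM. Listed genes known to respond to estrogen differed widely in level. PGR, the progesterone receptor, had 0 counts in all 6 libraries, TFF1 had 66 counts and GREB1 58 counts in total, while AGR2 had 215 to 640.1 CPM, XBP1 20.05 to 56.1 CPM, CCND1 12.5 to 42.3 CPM and PRLR 12.7 to 26.0 CPM. CA12, a carbonic anhydrase of luminal cells, was the 1 of 13 tested genes of this list without overlap (6.87% of all tested genes had none), at 1.65 ± 1.24 against 3.80 ± 0.589 CPM, and it did not pass (paired edgeR adjusted p = 0.271).

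Of 35 other transcription factors of epithelial and mammary cells, 25 were tested and 0 passed in either fit (median 0.09 unpaired, 15 above 0). SPDEF, an ETS factor of secretory cells, had 215 ± 81.4 CPM on soft and 189 ± 87.0 CPM on stiff gels, and the forkhead factor FOXI1, known from ionocytes, had 137 ± 26.2 and 153 ± 45.1 CPM. Among the factors that drive the mesenchymal state and oppose GRHL2, ZEB1 had 2 counts and ZEB2 4 counts over the 6 libraries, and SNAI1 and SNAI2 were the 2 of 8 with enough counts to test. SNAI1 had 1.92 ± 0.761 and 2.12 ± 0.592 CPM and SNAI2 2.97 ± 1.39 and 2.66 ± 1.30 CPM.

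**Figure D5:**
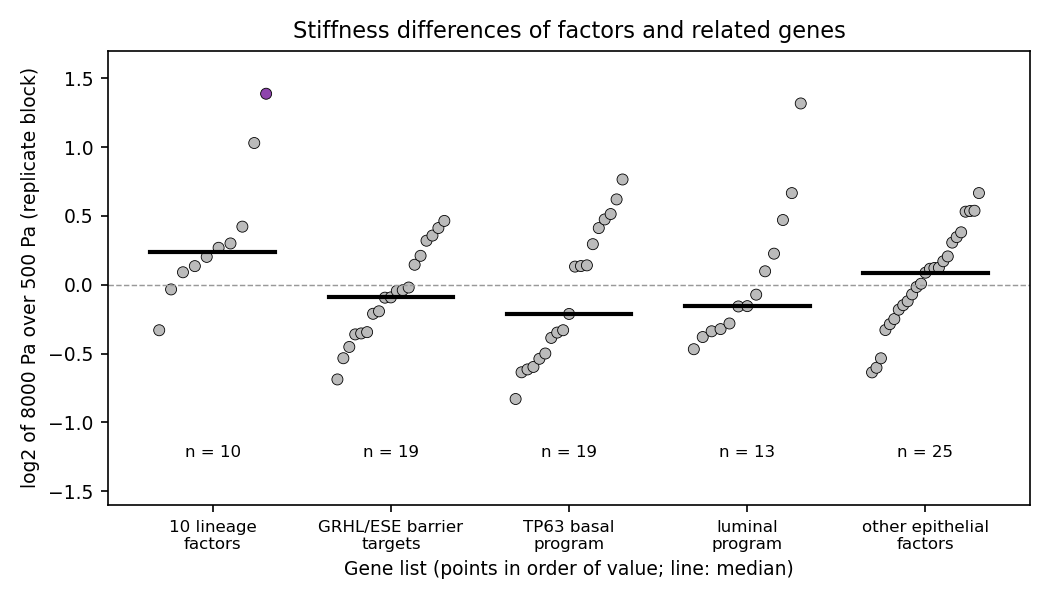
Paired log2 fold change (8000 Pa over 500 Pa) of each tested gene in 5 lists, points in order of value within a list, with the median as a line and genes that passed at an adjusted p under 0.05 in purple. GRHL3 is the single purple point, and the medians of the 5 lists lie between -0.21 and 0.24.

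Of the tested markers of other cell types (7 mesenchymal, 3 endothelial, 3 fibroblast and adipocyte and 2 leukocyte), 6 passed in the paired edgeR fit. Over all tested genes 0.530% passed, 0.260% as higher and 0.269% as lower. These lists were chosen with earlier results of these data known, so a count above that share is no evidence of enrichment. Of 7 mesenchymal markers tested, FN1 (fibronectin) rose and TAGLN (transgelin) fell in the paired edgeR fit (adjusted p = 2.29e-05 and 2.2e-05), at 36.0 ± 20.2 against 90.7 ± 45.9 CPM and 34.7 ± 21.9 against 10.5 ± 4.24 CPM. Of 3 endothelial markers tested, PECAM1 and CDH5 rose in that fit, while TIE1 and TEK had 0 counts and VWF 7 counts in total, and the summed level of the 7 listed genes was 100 to 156 CPM on soft and 213 to 258 CPM on stiff gels, most of it PECAM1, at 111 ± 30.4 and 219 ± 19.7 CPM. The calls of these mesenchymal and endothelial markers fell to 0 without the replicate 3 pair. Of the fibroblast and adipocyte list 3 of 10 were tested and LPL and FABP4 rose, while COL1A2, COL3A1, LUM and ADIPOQ had 0 counts, with a summed level of 4.14 to 6.48 CPM on soft and 13.9 to 21.8 CPM on stiff gels. Of 6 leukocyte markers, PTPRC and CD3E had 0 counts and 0 of 2 tested passed, with summed levels of 21.9 to 47.3 and 19.8 to 42.8 CPM. None of these passed in the unpaired edgeR fit, and their part in the GRHL3 difference was not tested.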

How the data were processed

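The authors deposited, for each of the 6 libraries, a table of raw counts by gene symbol beside log2 expression values that were TMM-scaled, per the file headers. HISAT2 2.1.2, HTSeq 0.11.4, limma and DESeq2 are named with GRCh38 in the submitters' processing notes. The sources used here name no annotation, strandedness or RNA selection. Log2 values list 8 of the 10 members (not FOXA1 or ESR1) and entered no test.

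Counts went through filterByExpr of edgeR 4.0.16 (R 4.3.3, minimum count 10, minimum total 15), TMM scaling and the quasi-likelihood F test, with Benjamini-Hochberg adjustment over 11517 genes and a threshold of 0.05. The main design had stiffness alone, and the paired fit added the replicate number. Group-centred log2 levels of same-numbered libraries correlated at 0.409, 0.184 and 0.516 across genes, above the required 0.1, but 500 Pa replicate 2 correlated at 0.199 with 8000 Pa replicate 1, and the labels give the numbers but no shared day or batch. In the paired fit the prior degrees of freedom were estimated as infinite, so all genes share a trended spread. Fold changes are 8000 Pa over 500 Pa. Exon lengths, coordinates and GC content are from GENCODE 29 (95.7% of tested genes matched by symbol), and start windows from RefSeq. Alternatives were limma-voom 3.58.1, DESeq2 1.42.0, other scalings, no low-count filter, a GC offset and leaving out libraries. The smallest chi-square per degree of freedom between libraries was 11.7, so none were duplicates. Fits were tested on simulated data. Floors cover counting error only.

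The members and the 9 related lists were chosen with earlier results of these data known. From each list, up to 3 genes passing in the paired fit were named or, failing these, the 3 of highest count per kb. EPCAM, CDH1, PKP3, CA12, AGR2, XBP1, CCND1, PRLR, PGR, TFF1, GREB1, ZEB1, ZEB2 and markers at 0 were named after their values were seen. Some named items are not reported here.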

Additional observations from a re-analysis of the deposited data

How the results depend on the processing

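With the replicate block 61 genes passed and 1 member (GRHL3), against 0 and 0 without it. Without the block DESeq2 called 7 genes and the fit without a low-count filter 8, with 0 members. With the block DESeq2 called 42, limma-voom 89, no filter 80 and the GC offset 72, each with 1 member, GRHL3. Leaving out 1 library gave 0 to 1 genes (1 without 500 Pa replicate 3), and leaving out 1 pair under the block gave 38, 81 and 12 genes (without replicates 1, 2 and 3), with 0 members. GRHL3 ranged from 1.03 to 1.57 (log2) and kept its direction in 21 of 21 fits, with adjusted p from 0.00673 to 0.999998, as did GRHL2, TP63, KLF5 and GATA3 keep theirs. The fits draw on the same 6 libraries, so a kept direction is no separate support. EHF changed sign with the block (-0.034), DESeq2 with the block (-0.043), limma-voom without and with it (-0.032 and -0.030), no filter with the block (-0.0074), the GC offset without and with it (-0.10 and -0.15), and it ranged from -0.47 to 0.47 over left-out libraries and from -0.40 to 0.29 over left-out pairs. ESR1 changed sign with the GC offset (-0.078, and -0.054 with the block) and ranged from -0.34 to 0.33 and from -0.54 to 0.53 in the same way. Over left-out libraries GRHL1 ranged from -0.24 to 0.59, ELF3 from -0.58 to 0.0057 and FOXA1 from -0.15 to 0.44. The basal list had 1 call with no filter and the block. The mesenchymal and endothelial marker lists had 2 calls each under each fit with the block, pairs left out included, except 0 without replicate 3. The fibroblast and adipocyte list had 2 in the block fits except 1 without replicate 2, and without the block 2 by DESeq2 and 1 with no filter. Over left-out libraries its median ran from 1.74 to 2.43 and the luminal median from -0.27 to 0.28. Scaling by library size alone moved the median of all genes to 0.17 (log2). Counts of 2 to 25 for ESR1 limit what depth can show. The cause of these changes was not tested.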

Other observations

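The gene whose profile was most like that of GRHL3 was CYP4Z1, a cytochrome P450 gene known from mammary tissue, with a Pearson correlation of log2 CPM of 0.996 over the 6 libraries. Candidates were the 8943 tested genes (8944 for ESR1) that reached 5 CPM in either stiffness group. The closest gene was PSMC1 for GRHL1 (0.999), TXNDC15 for GRHL2 (0.992), CHCHD4 for TP63 (0.992), PITPNM1 for ELF3 (0.999) and TOPORS for EHF (0.998). For KLF5 it was LIMA1 (0.995), for GATA3 TSR2 (0.991), for FOXA1 IQCE (0.991) and for ESR1 SNHG3 (0.970). ELF3 had 1288 genes with a correlation over 0.9, EHF 597 and GRHL1 426, against 54 for GRHL3 and 20 for GATA3. These are descriptions of 6 shared libraries that differ in GC trend, picked as the highest of many candidates, and no test was made.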
